A study of Homo sapiens with 31 samples.

Results

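The comparison set Caco-2 cells exposed to titanium dioxide (TiO2) nanomaterial on Transwell inserts against cells on the same inserts that received the matching TiO2-control medium. It comprised 7 of the 31 arrays of the series, 3 of them exposed and 4 of them controls, chosen by the culture and treatment named in their titles, and it covered 22389 genes. Caco-2 is a human colorectal adenocarcinoma line that stops dividing at confluence and then forms a polarised layer resembling the absorptive cells of the small intestine. Both groups were grown without flow for 21 days and then kept for 6 h with medium that contained either 50 µg/mL TiO2 or the dispersion solution without metal. The other arrays covered zinc oxide (ZnO) and the same pair of materials in a perfused gut-on-chip, each with a metal-free control medium of its own. The labels number the replicates but do not say whether they came from separate cultures, so p-values measure the spread between these samples, which may be technical. The model is 1 tumour-derived line, without the mucus-secreting and immune cells of the intestine.

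TiO2 is a white pigment of very low solubility that has been used in food, and its particles can be taken up by epithelial cells through endocytosis and held in lysosomes. Zinc oxide dissolves in part, and the zinc ions it releases are sensed by the transcription factor MTF1, which switches on metallothioneins, a family of metal-binding proteins rich in cysteine. Responses often looked for after particle exposure are the oxidative stress programme under NRF2, heat shock and unfolded protein responses, the immediate early genes, and NF-kB-driven cytokines.

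The 7 arrays were close to each other, and the 2 groups were not set apart as a whole. A gene is called brighter when its mean over the 7 arrays lay above 4.34, the median of all genes. Over the brighter genes the correlation was 0.9887 to 0.9906 within the TiO2 arrays, 0.9814 to 0.9883 within the controls and 0.9824 to 0.9918 across the groups. Control replicate 3 stood apart, at 22.31 on the first principal component (30.5% of the variance) against -9.9 to 3.95 for the other arrays. The root mean within-group variance was 0.165 for TiO2 and 0.2 for controls, or 0.185 without that array. Of 11 enterocyte and epithelial markers measured, among them villin (VIL1), CDX2 and sucrase-isomaltase (SI), 11 read above the array's median gene on every array. Their summed linear level was 13917 to 14510 in TiO2 arrays and 13228 to 14582 in controls. Of 18 stromal and immune markers measured, 12 read below the median gene on every array, among them PTPRC, CD3E and MS4A1, and 4 read above it on every array (CD14, CD68, COL1A1 and LUM). The summed level of these markers was 2345 to 2456 against 2333 to 2454. In bulk RNA, fewer cells of a type and less RNA per cell cannot be told apart.

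**Figure D1:**
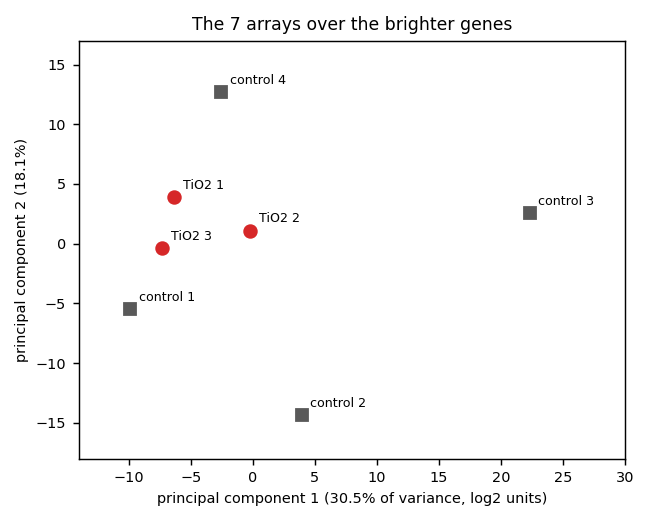
Principal components 1 and 2 (log2 units, 30.5% and 18.1% of the variance) of the 7 arrays over the brighter genes. Red circles are TiO2 arrays and grey squares are controls. The TiO2 arrays lie near the middle of the plot between the controls, and control replicate 3 lies alone at 22.31.

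No gene passed the test. With limma and Benjamini-Hochberg adjustment over all genes, 0 of 22389 genes (0.0%) had an adjusted p below 0.05, and the smallest adjusted p was 0.614, for MRAS, a Ras-related small GTPase whose signal was dim. At an unadjusted p below 0.05 there were 1100 genes (4.91%), where such a cut-off lets through 5% of genes when none differ. Of these 511 (2.28%) were higher and 589 (2.63%) lower in the TiO2 arrays. Centring each array on its own median turned that split to 659 higher and 431 lower, with a shift of the median gene of 0.02 on the log2 scale. Without control replicate 3 there were 0 genes called and 967 at an unadjusted p below 0.05 (442 higher, 525 lower), and the smallest adjusted p was 0.999 by limma. In 1239 genes (5.53%) the values of the exposed arrays did not overlap those of the controls, 609 of them higher (2.72%) and 630 lower (2.81%). Single genes and gene groups are therefore described by their differences and errors.

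A p that misses the threshold does not show that 2 groups are alike, so the intervals set what the arrays could resolve. All differences are TiO2 minus TiO2-control on the log2 scale with standard errors from limma, where 1 unit is a 2-fold difference. Among the 11194 brighter genes the median half-width of the 95% interval was 0.25, a fold of 1.19. The interval lay inside 2-fold in both directions for 11111 of them (99.3%) and inside 1.5-fold for 10019 (89.5%). Their differences ran from -0.81 to 0.93, so 0 brighter genes differed by 2-fold or more. Over all genes 4 were at least 2-fold higher and 8 at least 2-fold lower, and each of these was dim.

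**Figure D2:**
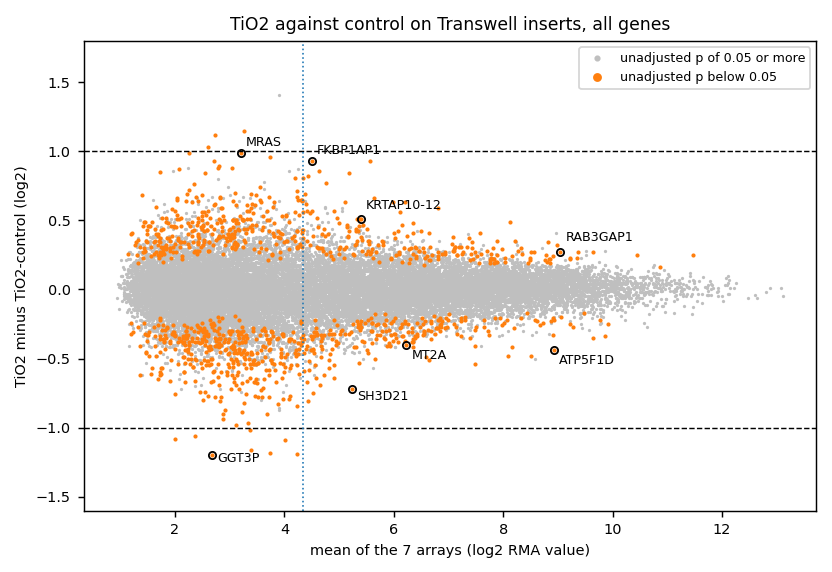
Difference between TiO2 and TiO2-control arrays (log2) against the mean of the 7 arrays (log2 RMA value), 1 point per gene, with genes at an unadjusted p below 0.05 in orange. Dashed lines mark 2-fold and the dotted line marks the median gene at 4.34. The points right of the dotted line stay between -0.81 and 0.93, and those beyond 2-fold are all to its left.

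The genes below are those with the smallest p in each direction and the largest differences without overlap among brighter genes, each with an adjusted p of 0.994. KRTAP10-12, a keratin-associated protein of hair, read 5.48, 5.81 and 5.75 in the TiO2 arrays and 5.28, 5.08, 5.18 and 5.16 in the controls. Its groups were separate, with a difference of 0.51 ± 0.12 (95% interval 0.24 to 0.77). GMEB1, a DNA-binding protein that modulates glucocorticoid responses, read 5.48, 5.67 and 5.74 against 5.28, 5.35, 4.87 and 5.2. Its difference was 0.46 ± 0.14, or 0.35 without control replicate 3, the lowest array. KLF12, a zinc finger repressor, read 7.73, 7.44 and 7.67 against 7.31, 7.2, 7.28 and 7.31, a difference of 0.34 ± 0.10. The controls of this gene lay close together, and the nearest TiO2 array was 7.44.

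Several bright genes whose TiO2 arrays lay close together were among them. PDLIM5, a scaffold protein of the actin cytoskeleton, read 7.08, 7.06 and 7.11 against 6.86, 6.86, 6.68 and 6.89, a difference of 0.26 ± 0.08. RAB3GAP1, the catalytic subunit of a regulator of Rab GTPases in membrane traffic, read 9.22, 9.22 and 9.13 against 8.99, 9.02, 8.81 and 8.89, a difference of 0.27 ± 0.08. DIO1, the deiodinase that activates thyroid hormone, read 6.83, 6.88 and 6.93 against 6.43, 6.72, 6.44 and 6.29, a difference of 0.41 ± 0.13. In these 3 genes the exposed arrays all lay above the controls, and the intervals (0.09 to 0.43, 0.09 to 0.44 and 0.14 to 0.68) stayed within 2-fold. PPCDC, an enzyme of coenzyme A synthesis, was higher by 0.40 ± 0.13. DCDC1 (0.41 ± 0.13), MAP3K7CL (0.44 ± 0.14), ZSCAN20 (0.32 ± 0.10) and the antisense transcript CD200R1L-AS1 (0.48 ± 0.15) completed this group of genes with names.

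The 10 largest higher values without overlap included pseudogenes, whose probes may not tell them from the parent gene. FKBP1AP1, a pseudogene of the immunophilin FKBP1A, read 4.84, 4.75 and 5.5 against 4.38, 3.88, 4.47 and 3.66, a difference of 0.93 ± 0.29. GUSBP3, a pseudogene of beta-glucuronidase, read 6.04, 6.26 and 6.01 against 5.74, 5.35, 4.23 and 5.38, a difference of 0.93 ± 0.30. Control replicate 3 was its lowest array, and without it the difference was 0.62. SCARNA3, a small Cajal body RNA, read 5.75, 5.74 and 5.48 against 5.16, 5.06, 3.89 and 5.15, which gave 0.84 ± 0.29 with that array and 0.53 without it. POTEE, of a family of near-identical ankyrin genes, gave 0.59 ± 0.19 with it and 0.40 without it. LOC400682 (0.77 ± 0.19), LOC145474 (0.69 ± 0.23), SNORD37 (0.66 ± 0.26, or 0.40 without TiO2 replicate 2) and FBXW10B (0.57 ± 0.24) also belonged to these 10, with MIR581 and MIR421 described among the microRNA genes. The FBXW10B difference was 0.33 without control replicate 4, with 3 controls between 4.36 and 4.46, 1 at 3.45, and TiO2 arrays of 4.71, 4.72 and 4.8.

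In the other direction SH3D21, which carries SH3 domains, had the smallest p of all brighter genes (0.000354 before adjustment in the limma fit). It read 4.86, 4.52 and 5.09 in the TiO2 arrays and 5.16, 5.75, 5.76 and 5.46 in the controls, a difference of -0.72 ± 0.15 (95% interval -1.05 to -0.39). The highest TiO2 array lay just under the lowest control. PRDM11, a PR-domain protein, read 4.36, 4.49 and 4.5 against 4.73, 4.8, 4.9 and 4.84, a difference of -0.37 ± 0.09. ZNF528, a zinc finger gene, differed by -0.59 ± 0.15, and SLC2A4RG, a regulator of the glucose transporter gene SLC2A4, by -0.35 ± 0.10 (7.25, 7.16 and 7.17 against 7.42, 7.66, 7.57 and 7.53). CYGB, the oxygen-binding protein cytoglobin, differed by -0.44 ± 0.12.

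Both a subunit of the mitochondrial ATP synthase and a subunit of cytochrome c oxidase were among the lower values. ATP5F1D read 8.56, 8.65 and 8.81 against 9.22, 9.14, 9.19 and 8.91, a difference of -0.44 ± 0.12. COX6C read 4.3, 4.16 and 4.39 against 4.6, 4.71, 4.9 and 4.66, a difference of -0.43 ± 0.13. The nuclear-encoded respiratory chain list as a whole was centred on zero, with a median of 0.00 over 22 measured members and 1 of them, COX6C, at an unadjusted p below 0.05. UQCRB, a complex III subunit, was next at -0.36 ± 0.19, and its arrays overlapped.

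TUBA1B, an alpha-tubulin with near-identical paralogs, read 5.14, 5.53 and 5.42 against 5.72, 6.15, 5.65 and 5.93, a difference of -0.50 ± 0.17. CETN3, a centrin of the centrosome, differed by -0.53 ± 0.16. MSL3, a subunit of a histone acetyltransferase complex, differed by -0.62 ± 0.20, and METTL18, a histidine methyltransferase, by -0.51 ± 0.16. HOXB9, a homeobox factor, read 6.16, 6.14 and 6.05 against 6.66, 6.29, 6.38 and 6.83, a difference of -0.42 ± 0.13. ADORA1, the adenosine A1 receptor, differed by -0.44 ± 0.13, and ASTE1, TTC33, SNHG17, ZNF548 and FAM138E by -0.33 to -0.55.

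**Figure D3:**
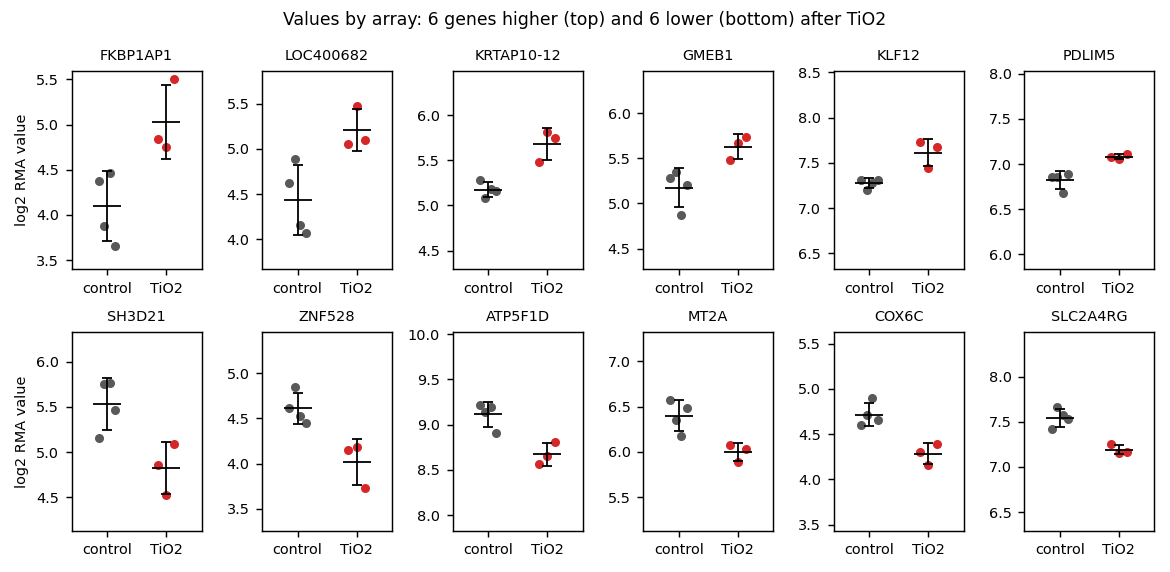
Log2 RMA values by array for 6 genes that read higher (top row) and 6 that read lower (bottom row) after TiO2, with controls in grey and TiO2 in red. Horizontal bars are group means and error bars are the SD (n = 4 controls, n = 3 TiO2), and every panel spans the same height. The groups do not overlap in any panel, a pattern that 5.53% of all genes showed.

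Metallothioneins are read first among the gene groups because zinc oxide is known to raise them and because they report dissolved metal. Of 11 genes in the list 10 were measured, 4 of them brighter, and the median difference was -0.20, against 0.00 over all genes. That median ran from -0.32 (without TiO2 replicate 3) to -0.10 (without TiO2 replicate 2) with 1 array left out. At an unadjusted p below 0.05 there were 0 higher and 2 lower members (20.0%). In every list the count at this cut-off is to be read beside the 4.91% of all genes, and no share was tested. The promoter windows of 3 metallothionein genes are shown because they hold matches to the core of the metal response element, the motif of MTF1. Each is the 250 bases before the annotated start in RefSeq (build GRCh38.p14), with every match on either strand to the element cores TGCACNC and TGCGCNC in capitals.
MT2A, chr16:56608334-56608583 (+ strand): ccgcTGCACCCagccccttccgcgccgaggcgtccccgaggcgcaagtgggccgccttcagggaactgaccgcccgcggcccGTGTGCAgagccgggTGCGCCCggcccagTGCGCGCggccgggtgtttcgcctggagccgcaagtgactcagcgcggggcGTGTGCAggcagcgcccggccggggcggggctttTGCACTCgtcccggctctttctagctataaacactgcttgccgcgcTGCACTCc
MT1H, chr16:56669564-56669813 (+ strand): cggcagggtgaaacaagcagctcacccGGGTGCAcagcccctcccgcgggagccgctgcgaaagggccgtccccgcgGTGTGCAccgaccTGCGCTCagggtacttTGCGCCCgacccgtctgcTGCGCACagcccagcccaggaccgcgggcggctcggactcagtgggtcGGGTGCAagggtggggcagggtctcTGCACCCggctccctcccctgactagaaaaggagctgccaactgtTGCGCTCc
MT1X, chr16:56682220-56682469 (+ strand): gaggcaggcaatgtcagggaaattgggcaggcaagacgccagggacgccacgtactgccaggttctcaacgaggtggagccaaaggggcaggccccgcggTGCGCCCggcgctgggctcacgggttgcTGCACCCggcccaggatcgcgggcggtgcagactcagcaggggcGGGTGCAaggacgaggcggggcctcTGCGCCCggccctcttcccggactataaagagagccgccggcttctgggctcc
The windows hold 7, 8 and 4 matches in that order, none of them overlapping another. All 5 metallothionein promoters in the RefSeq table held at least 3, as did 1.58% of 35116 promoters of this length, and 24.8% held at least 1. A match is a description of letters and not evidence of binding in these cells.

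MT2A read 6.08, 5.89 and 6.03 in the TiO2 arrays and 6.57, 6.35, 6.18 and 6.49 in the controls. The groups did not overlap, and the difference was -0.40 ± 0.11 (95% interval -0.64 to -0.15, a fold of 0.759). MT1H was dim and read 2.31, 3.09 and 3.2 against 3.67, 3.04, 3.85 and 3.97, a difference of -0.76 ± 0.24 with overlapping arrays. The brighter MT1X read 8.61, 8.54 and 8.89 against 8.67, 8.78, 8.67 and 8.53, a difference of 0.02 ± 0.11. MT1F lay between these at -0.23 ± 0.15 (-0.09 without TiO2 replicate 1 and -0.35 without TiO2 replicate 3), with MT1M at -0.30 ± 0.21 (-0.17 without control replicate 3) and MT1G at -0.16 ± 0.20 (0.05 without TiO2 replicate 2 and -0.37 without TiO2 replicate 3). The MT1H difference was -0.49 without TiO2 replicate 1. Members therefore did not read alike, and since the paralogs are nearly identical in sequence, probes can bind more than 1 of them and single values are uncertain. SLC30A1, the zinc exporter that is also an MTF1 target, read 9.33, 9.45 and 9.36 against 9.31, 9.51, 9.27 and 9.48, a difference of -0.01 ± 0.10 (95% interval -0.23 to 0.20). Of 25 zinc transporters 0 had an unadjusted p below 0.05, and their median was -0.02.

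**Figure D4:**
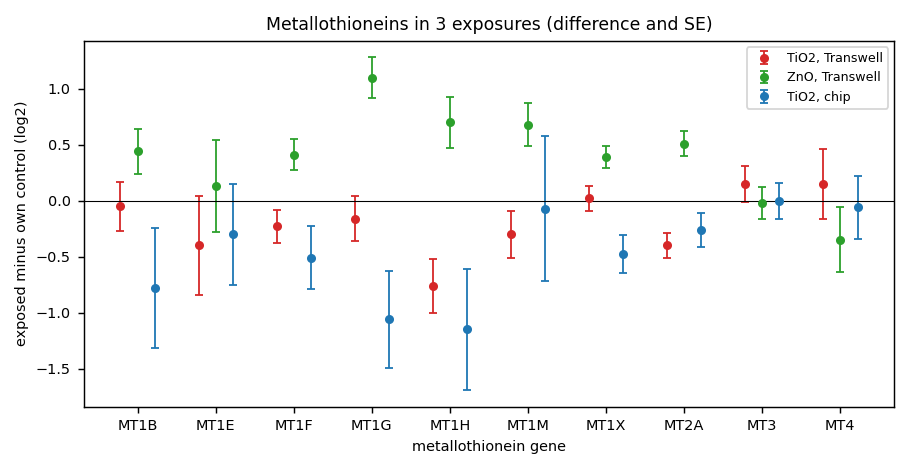
Difference between exposed cells and their own control (log2) for 10 metallothionein genes after TiO2 on Transwell (red), ZnO on Transwell (green) and TiO2 in the chip (blue). Points are limma differences and bars are standard errors (n = 3 TiO2 arrays on Transwell, 4 arrays in every other group). MT2A lies at -0.40 after TiO2 and at 0.51 after ZnO on the same inserts. All 8 chip arrays with TiO2 or its control are included.

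Oxidative stress genes stayed near zero difference. Of 24 NRF2 targets measured, 23 of them brighter, 0 had an unadjusted p below 0.05, the median was 0.01 and the range was -0.16 to 0.27. HMOX1, the haem-degrading enzyme and a common marker of this response, read 7.35, 7.5 and 7.45 against 7.52, 7.45, 7.66 and 7.31. Its difference was -0.05 ± 0.10, and its 95% interval of -0.26 to 0.16 lay inside 1.5-fold in both directions. NQO1, a quinone reductase, read 8.6, 8.71 and 8.74 against 8.88, 8.76, 8.77 and 8.84, a difference of -0.13 ± 0.09. Glutathione reductase (GSR, 0.13 ± 0.09), thioredoxin (TXN, 0.18 ± 0.12) and thioredoxin reductase (TXNRD1, 0.11 ± 0.09, or 0.07 without control replicate 3) leaned the other way. Of 15 enzymes that make or remove superoxide and peroxide 0 had an unadjusted p below 0.05, with NOX1, the colonic NADPH oxidase, at -0.20 ± 0.10.

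Protein damage responses were similar. Of 13 heat shock proteins and chaperones 1 was higher at an unadjusted p below 0.05 and 0 were lower (7.69%), with a median of 0.00. That gene was HSP90AB1, the constitutive HSP90, which read 10.48, 10.64 and 10.66 against 10.65, 10.18, 10.14 and 10.38, a difference of 0.25 ± 0.11 with overlapping arrays. HSPB1, a small heat shock protein, was at -0.13 ± 0.09. The list for the unfolded protein response and the integrated stress response had 23 measured members, 0 at an unadjusted p below 0.05 and a median of -0.01. SESN2, a stress-induced regulator of mTORC1, was at 0.22 ± 0.12 and ATF4, the transcription factor of the integrated stress response, at -0.17 ± 0.10.

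Immediate early genes, the first to be transcribed after growth factors or stress, had a median of -0.08 over 23 members, with 1 higher and 2 lower at an unadjusted p below 0.05. FOS, an AP-1 subunit, read 6.57, 6.72 and 6.68 against 6.82, 7.0, 7.02 and 6.88, a difference of -0.28 ± 0.09. Every exposed array was below the lowest control. EGR3, a zinc finger factor of the same class, was dim and differed by -0.45 ± 0.18, or by -0.28 without TiO2 replicate 1. DUSP5, a nuclear ERK phosphatase, read 5.82, 5.68 and 5.7 against 5.46, 5.41, 5.28 and 5.68, a difference of 0.27 ± 0.11. KLF4, a differentiation factor of the gut epithelium, was at -0.19 ± 0.12 with overlapping arrays.

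The median over NF-kB targets and cytokines was 0.06. Of 24 measured, 2 were higher and 0 lower at an unadjusted p below 0.05 (8.33%, against 4.91% of all genes). Both were chemokines near or below the median gene, where background weighs most. CXCL10, which attracts T cells, read 4.13, 4.2 and 3.49 against 3.38, 3.19, 3.34 and 3.32, a difference of 0.63 ± 0.19. CXCL3, which attracts neutrophils, read 4.05, 4.31 and 3.94 against 3.28, 3.44, 3.48 and 3.5, a difference of 0.67 ± 0.24. The lowest TiO2 array of CXCL10 lay close to the controls, and its other pair of arrays lay well above them. CXCL8, the interleukin-8 gene, read 1.45, 2.09 and 1.97 against 1.71, 1.95, 1.47 and 2.11, a difference of 0.03 ± 0.20 at a level where little can be resolved. NFKB1, the p50 precursor, was at 0.27 ± 0.14 (0.15 without control replicate 3) and the cytokine IL32 at -0.28 ± 0.14. Of 15 inflammasome genes 0 had an unadjusted p below 0.05. Their median was 0.01, with 8 members above zero and 7 below, and the range was -0.30 to 0.48. NLRP3 at 0.33 ± 0.17 and the adaptor PYCARD at 0.48 ± 0.27, both dim, were on the higher side. Of 22 interferon-stimulated genes 0 had an unadjusted p below 0.05. Their median was 0.01, with 12 members above zero and 10 below. The range was -0.25 to 0.40, with the dim IFIT1 at its upper end (0.40 ± 0.19).

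Genes of particle uptake and storage had narrow ranges. Of 26 endocytosis genes, all of them brighter, 0 had an unadjusted p below 0.05, the median was 0.03 and the range was -0.11 to 0.18. CAVIN1, a coat protein of caveolae, was at 0.17 ± 0.11 and CTTN, the actin regulator cortactin, at 0.10 ± 0.07. Of 28 lysosome and autophagy genes 0 had an unadjusted p below 0.05, the range was -0.13 to 0.14 and the median was 0.00. The lysosomal protease gene CTSZ was at 0.14 ± 0.08 and LAMP1, a lysosomal membrane protein, at 0.13 ± 0.08 (9.65, 9.63 and 9.69 against 9.63, 9.58, 9.43 and 9.45). Their 95% intervals ended at 0.31 and 0.30.

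Absorptive functions read much the same in both groups. Of 16 brush border enzymes and 19 microvillus proteins 0 had an unadjusted p below 0.05, with medians of 0.03 and 0.00. DPP4, a brush border peptidase, read 11.86, 11.74 and 11.83 against 11.82, 11.84, 11.65 and 11.7, a difference of 0.06 ± 0.08. ANKS4B, of the complex that links microvillus tips, was at -0.13 ± 0.09. The same count of 0 held for 20 nutrient transporters (median 0.00), 15 iron-handling genes (0.07), 17 cholesterol synthesis genes (0.06), 20 genes of fatty acid oxidation (0.00) and 19 of bile acid handling and gluconeogenesis (-0.04). Of 19 genes of fat absorption 1 was higher at an unadjusted p below 0.05, SAR1B, the GTPase that exports chylomicrons from the endoplasmic reticulum. It read 7.7, 7.67 and 7.57 against 7.37, 7.62, 7.11 and 7.39, a difference of 0.27 ± 0.11 with overlapping arrays. DGAT2, of triglyceride synthesis, was at 0.19 ± 0.09 and FABP2, the intestinal fatty acid binding protein, at 0.23 ± 0.16, or 0.06 without control replicate 3.

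Of 22 junction genes 1 was higher and 0 lower at an unadjusted p below 0.05. CGN, the tight junction plaque protein cingulin, read 7.95, 7.94 and 7.88 against 7.75, 7.71, 7.64 and 7.69. Its groups were separate and tight, with a difference of 0.22 ± 0.10 (95% interval 0.01 to 0.44). CLDN2, a pore-forming claudin, was at -0.24 ± 0.17, or -0.11 without control replicate 3 and -0.42 without TiO2 replicate 1. Of 24 mucus and secretory genes 1 was lower and 0 higher. That was MUC1, a membrane mucin, at -0.43 ± 0.16 (3.34, 3.74 and 3.4 against 4.35, 3.6, 4.08 and 3.66), which is dim and whose arrays overlap. FCGBP, a mucus protein, was at 0.44 ± 0.22.

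Of 25 matrix and adhesion genes 1 was higher and 1 lower, LAMB3, a laminin chain of the epithelial basement membrane, at 0.23 ± 0.09 (0.14 without TiO2 replicate 1), and the dim matrilysin gene MMP7 at -0.31 ± 0.11. Of 18 YAP targets 1 was higher and 0 lower, CCN1 at 0.32 ± 0.15, or 0.18 without control replicate 3. Of 17 intestinal transcription factors 1 was higher and 0 lower, FOXA3 at 0.28 ± 0.12, while the list median was -0.09. The EGF receptor family (11 measured) and the stem cell and Wnt targets (17 measured) had 0 at an unadjusted p below 0.05, with medians of 0.03 and -0.06.

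Death and growth genes gave few low p-values. Of 25 apoptosis regulators 1 was lower and 0 higher at an unadjusted p below 0.05. CASP8, the initiator caspase of death receptors, read 6.17, 5.97 and 6.1 against 6.41, 6.4, 6.51 and 6.23, a difference of -0.31 ± 0.09, and the groups did not overlap. PMAIP1, the BH3-only protein NOXA, was at -0.42 ± 0.21 and the survival factor BIRC5 at 0.21 ± 0.11, both with overlapping arrays. Of 23 DNA damage and p53 target genes 1 was lower and 0 higher, TP53I3, an oxidoreductase, at -0.41 ± 0.15 (5.86, 5.63 and 5.59 against 5.95, 6.36, 6.17 and 5.94). Cell cycle genes (31 measured) had 0, a median of 0.01 and a range of -0.08 to 0.15. Replication-dependent histones (11 measured, median 0.03), ribosomal proteins (17, -0.02) and hypoxia and glycolysis genes (26, 0.03) also had 0.

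Of 25 genes of drug metabolism and efflux 2 were lower and 0 higher at an unadjusted p below 0.05 (8.0%, against 4.91% of all genes). Both were sulfotransferases, a class that was not tested. SULT1E1, which conjugates oestrogens, read 7.79, 8.08 and 7.89 against 8.2, 8.51, 8.54 and 8.1, a difference of -0.42 ± 0.15 with separate groups. SULT1A1, the phenol sulfotransferase, was nearer the median gene and read 4.3, 3.81 and 3.97 against 4.93, 4.09, 5.48 and 4.28, a difference of -0.67 ± 0.25 with overlapping arrays. Its controls spread over more than 1 log2 unit, and the difference was -0.41 without control replicate 3 and -0.87 without control replicate 2. CYP3A5, a xenobiotic oxidase, was at -0.29 ± 0.16. The list as a whole had a median of 0.01, with 13 members above zero and 12 below and a range of -0.67 to 0.37. Of 8 targets of the aryl hydrocarbon receptor 0 had an unadjusted p below 0.05, and their median was 0.04.

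**Figure D5:**
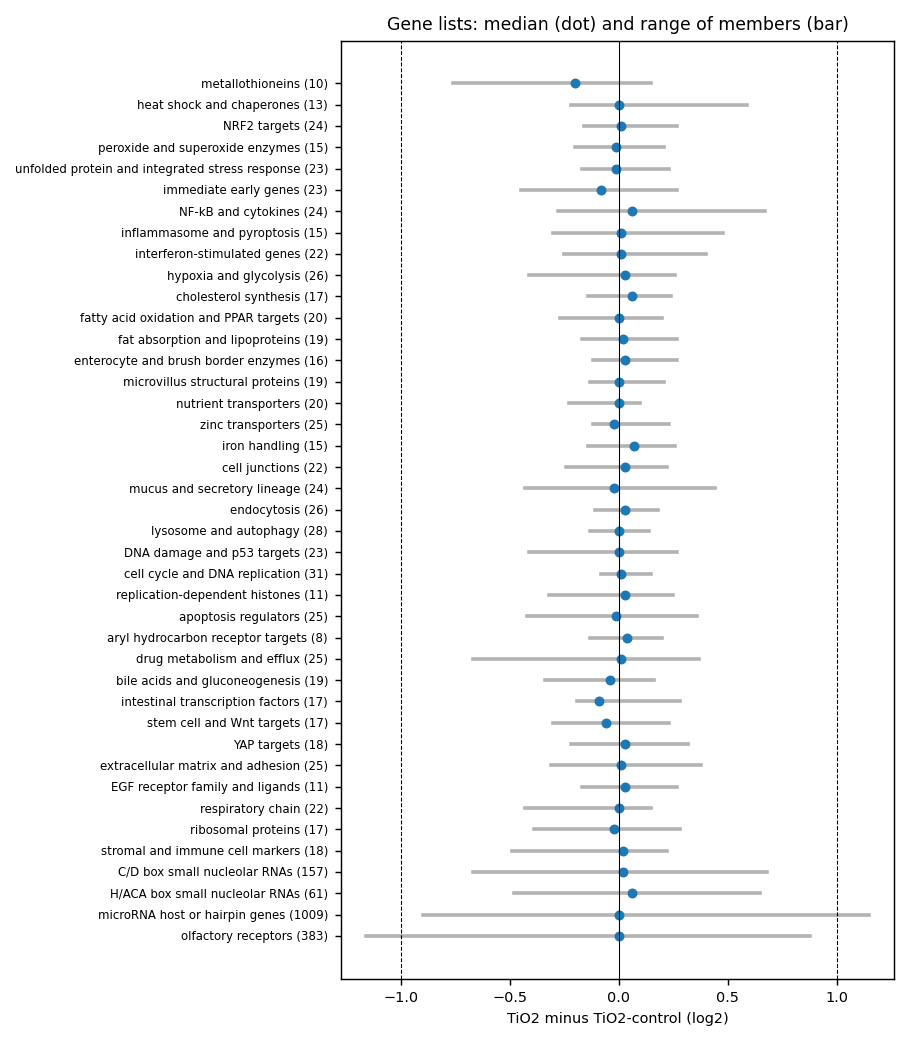
Median difference (dot) and range of members (bar) on the log2 scale for each gene list, with the number of measured members in brackets and dashed lines at 2-fold. All medians lie between -0.20 (metallothioneins) and 0.07 (iron handling). The widest bars belong to the microRNA genes and olfactory receptors, most of which were dim.

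Small RNA genes held a larger share of low p-values than the 4.91% of all genes, without a test of that share. Of 157 C/D box small nucleolar RNAs, guides of RNA methylation, 69 were brighter. At an unadjusted p below 0.05 there were 12 higher and 2 lower (8.92%), and the list median was 0.02. The smallest p of this list belonged to SNORD115-28, which was very dim (mean 1.42 against 1.02). Of 61 H/ACA box RNAs, guides of pseudouridylation, 5 were higher and 1 lower (9.84%), with a median of 0.06. These medians were -0.06 and -0.02 without TiO2 replicate 2. Arrays did not overlap in 12 higher and 2 lower C/D box RNAs, and in 3 higher and 0 lower H/ACA box RNAs. By that measure the C/D share lay above the 5.53% of all genes and the H/ACA share below it. SNORD94 read 7.15, 7.45 and 7.2 against 6.85, 7.06, 7.07 and 6.91, a difference of 0.29 ± 0.10 with separate groups. SNORA71D read 8.11, 8.79 and 8.33 against 8.23, 8.01, 8.06 and 7.93, a difference of 0.35 ± 0.14 that was 0.16 without replicate 2 of TiO2, the highest array. SNORA7B was at 0.28 ± 0.12 and SNORD114-27 at -0.32 ± 0.11. Olfactory receptors, mostly silent in gut epithelium, were a dim group for comparison, and of 383 measured 13 were higher and 6 lower (4.96%). Dim genes as a whole held the larger share of low p-values. Among the 11194 brighter genes the share was 3.64% (407), below the 4.91% of all genes. How far the shares of the small RNA genes go with their dim signal was not tested.

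Of 1009 microRNA genes 148 were brighter, 34 were higher and 41 lower at an unadjusted p below 0.05 (7.43%), and the median was 0.00. Their arrays did not overlap in 28 higher and 28 lower genes, a share close to the 5.53% of all genes. The probe sets are named for the hairpin genes, so the values are not those of the mature forms alone. The mature sequences of the 6 that met the rule for named genes are shown from RefSeq (GRCh38.p14), with the seed, bases 2 to 8, in capitals, to let their seeds be compared. No 2 of the 8 sequences share a seed.
hsa-miR-941: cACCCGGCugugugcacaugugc
hsa-miR-581: uCUUGUGUucucuagaucagu
hsa-miR-421: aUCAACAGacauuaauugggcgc
hsa-miR-3125: uAGAGGAAgcuguggagaga
hsa-miR-4653-5p: uCUCUGAGcaaggcuuaacacc
hsa-miR-4653-3p: uGGAGUUAaggguugcuuggaga
hsa-miR-92b-5p: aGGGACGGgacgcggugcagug
hsa-miR-92b-3p: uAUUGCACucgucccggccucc
MIR941-1, one of several copies of that gene, read 6.61, 6.38 and 6.33 against 5.52, 6.17, 5.85 and 5.99, a difference of 0.56 ± 0.14. MIR581 read 5.21, 4.88 and 4.59 against 4.36, 4.13, 3.59 and 4.22, a difference of 0.82 ± 0.25, and MIR421 differed by 0.57 ± 0.20. In the other direction MIR3125 read 5.15, 5.27 and 5.36 against 5.56, 5.52, 5.93 and 5.77, a difference of -0.44 ± 0.13. For MIR4653 (-0.57 ± 0.32) and MIR92B (-0.53 ± 0.27) the groups were barely separate and the 95% intervals held zero. So 3 of these genes read higher and 3 lower.

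The response to TiO2 was then set against the response to ZnO on the same inserts, each with its own control, in the fit of all 15 Transwell arrays. The doses differed (50 µg/mL TiO2, 10 µg/mL ZnO). By limma 0 genes (0.0%) had an adjusted p below 0.05 for the difference of the responses, the smallest being 0.305, and 1135 (5.07%) had an unadjusted p below 0.05. ZnO alone gave 0 genes by adjusted p and 1476 (6.59%) unadjusted. MT2A was the only brighter gene among the 10 smallest p-values, at -0.40 ± 0.11 after TiO2 and 0.51 ± 0.11 after ZnO. The responses differed by -0.91 ± 0.16, with an adjusted p of 0.343 in limma, and by -0.98 to -0.85 when any 1 of the 7 arrays was left out. SLC30A1, chosen after its values were seen, was at -0.01 ± 0.10 after TiO2 and 0.57 ± 0.09 after ZnO, and its responses differed by -0.58 (adjusted p of 0.733 in limma). Metallothionein medians were -0.20 and 0.42 and those of immediate early genes -0.08 and 0.20, the metallothionein median after TiO2 being -0.10 without TiO2 replicate 2 and -0.32 without TiO2 replicate 3. The other genes of smallest p, such as CD207 (0.53 ± 0.12 against -0.34 ± 0.11), PLCL1 (0.46 ± 0.12 against -0.42 ± 0.11) and the 5S pseudogene RN5S513 (-0.30 ± 0.15 against 0.98 ± 0.14), were dim.

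The last comparison asked whether static inserts and the chip gave different responses to TiO2, at 50 and 100 µg/mL, which the labels describe as modelled to deposit equal doses. In the chip both arrays of replicate number 4 stood apart. On the first component of the 8 chip arrays (28.4% of the variance) they were at -27.3 (TiO2) and -18.9 (control) against -7.2 to 15.2 for the rest. On the second component (23%) TiO2 replicates 1 to 3 were at 10.2 to 14.2 and controls 1 to 3 at -22.2 to -11.1, while control 4 was at 14.8 and TiO2 4 at -3.5. There control 4 lay with the exposed arrays, against its label, and TiO2 4 lay between the groups. Whether the labels of these 2 arrays were exchanged was not tested, and the chip values and response differences below rest on the labels as given. With them, 0 genes (0.0%) differed in response by adjusted p in limma (smallest 0.707) and 1215 (5.43%) unadjusted. TiO2 in the chip alone gave 0 genes by adjusted p and 1996 (8.92%) unadjusted. Both arrays of number 4 were also left out, a choice made after these components were seen. Leaving out arrays that do not follow the split of the others favours more calls. The counts and p-values without them are therefore no test of a response in the chip or of a difference between the responses. Without them the chip gave 73 genes by adjusted p in limma and 3001 (13.4%) unadjusted. For the difference of the responses 1 gene fell below the same cut-off (2088 unadjusted, 9.33%).

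That gene was HSD17B7, an enzyme of cholesterol synthesis and oestrogen formation, at 0.24 ± 0.15 on inserts. Its chip difference was -0.93 ± 0.29 with all chip arrays and -1.62 ± 0.21 without those of number 4. The difference of 1.85 ± 0.29 had an adjusted p of 0.0215 in limma without those arrays, and of 0.847 with them (1.16 ± 0.43). SLC10A5, of the bile acid carrier family, read 7.35, 6.86 and 7.51 on inserts with TiO2 and 7.48, 8.02, 7.43 and 7.38 in their controls, a difference of -0.34 ± 0.21, or -0.15 without TiO2 replicate 2. In the chip it was at 1.54 ± 0.28, and the responses differed by -1.88 ± 0.40 (adjusted p of 0.707 in limma), or by -2.13 ± 0.42 without the arrays of number 4 (0.077). DTYMK, the thymidylate kinase of DNA synthesis, was at 0.39 ± 0.16 on inserts and -0.49 ± 0.14 in the chip, a difference of 0.87 ± 0.20 (adjusted p of 0.707 in limma), or 0.82 ± 0.22 without them (0.232). LOC145474 was at 0.69 ± 0.23 on inserts and -1.35 ± 0.32 in the chip, a difference of 2.05 ± 0.47, or 2.46 ± 0.47 without them. FOS, at -0.28 ± 0.09 on inserts, was at 0.31 ± 0.18 in the chip, a difference of -0.59 ± 0.26 with an adjusted p of 0.898 in limma, or -0.56 ± 0.29 without them. MT2A was at -0.40 ± 0.11 and -0.26 ± 0.15, a difference of -0.14 ± 0.22 (0.979). Without the arrays of number 4 MT2A was at -0.43 ± 0.15 in the chip, and the difference of the responses was 0.03 ± 0.21 (0.977), so its sign turned. Other metallothioneins did not follow MT2A. Without those arrays MT1X was at -0.71 ± 0.18 and MT1G at -1.62 ± 0.46 in the chip. Their responses differed by 0.73 ± 0.24 and 1.47 ± 0.63 (adjusted p of 0.326 and 0.474 in limma). With all chip arrays the metallothionein median was -0.20 on inserts and -0.39 in the chip.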

How the data were processed

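Total RNA of Caco-2 cells was labelled for an Affymetrix whole-transcript array, per the labels' protocols. The authors deposited log2 values made with RMA, per the submitters' processing notes; the version used is not given in the sources used here. The method equalises the arrays' distributions, so a shift shared by all genes cannot be seen. The table held 53617 probe sets; 23862 listed 1 gene, 1851 several and 27904 none in the platform annotation. Symbols were updated through RefSeq (GRCh38.p14; 22569 probe sets matched), and the probe set with the highest mean stood for each of 630 genes with several. Detection calls were not used here, and the number of arrays limits the precision.

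Limma 3.58.1 (R 4.3.3) fitted 1 mean per group to the 15 Transwell arrays (11 residual degrees of freedom) and tested each contrast with Benjamini-Hochberg adjustment over 22389 genes. The difference from the chip response was fitted on all 31 arrays. The script was tested on simulated data. The members and gene lists were chosen with earlier results of these data known. Named genes were brighter genes, 15 of smallest p and up to 10 of largest separated difference in each direction, up to 4 of smallest p per list, and 10 per response difference. HMOX1, SLC30A1, CXCL8, MT1X, MT1G and HSD17B7 were added after their values were seen. Samples were not treated as pairs by replicate number, whose meaning the labels do not give. On Transwell the deviations of same-numbered TiO2 and control arrays correlated at -0.03, 0.08 and -0.09, too few arrays to settle it. In the chip both arrays of number 4 stood apart on the first component. Whether the numbers mark shared cultures was not tested. Alternatives covered arrays, prior, weights, dim genes, probe sets, scaling, block and each array left out.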

Additional observations from a re-analysis of the deposited data

Results flagged for a closer look

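In each of 109 genes described, the 4 control arrays were checked for 1 array far from the other 3, and 5 genes had one. Chance flags about 1 in 20 groups. In PDLIM5 control replicate 3 was at 6.68, with the others at 6.86 to 6.89. In SCARNA3 the same array was at 3.89, with the others at 5.06 to 5.16. In CETN3 control replicate 4 was at 5.3 against 5.64 to 5.7, and in FBXW10B it was at 3.45 against 4.36 to 4.46. In SLC10A5 control replicate 2 was at 8.02 against 7.38 to 7.48.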

How the results depend on the processing

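The count of 0 genes by adjusted p held in all 18 alternatives to the fit, with smallest adjusted p-values of 0.335 to 0.999 in limma. The count at an unadjusted p below 0.05 was 1100 (4.91%), and it was 591 (2.64%) with all 31 arrays in the fit. Among genes above the array median on at least 3 arrays it was 542, or 4.76% of that smaller set. Over all probe sets, a choice made after seeing the data, it was 2571 (4.80%). With 1 array left out it was 967 to 1362. With the replicate number as a block it was 982 (455 higher, 527 lower), again with 0 called, and no call changed under the pairing. The count of genes without overlap was 662 after the filter on dim genes and 2059 to 2827 with 1 array left out, where fewer arrays make separation easier. The 0 calls for the difference from ZnO held in 13 alternatives (644 to 1264 genes unadjusted). Those for the chip held in 13 of 14, the exception being 1 call without the chip arrays of number 4, chosen after seeing the data.

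Of 109 genes described, 5 with differences near zero turned sign. MT1X was -0.04 and SLC30A1 0.00 under the replicate block, SLC30A1 was 0.01 with centred arrays and CXCL8 -0.01 with array weights. With 1 array left out the ranges were -0.37 to 0.05 for MT1G, -0.09 to 0.09 for MT1X, -0.11 to 0.01 for HMOX1, -0.05 to 0.03 for SLC30A1 and -0.10 to 0.22 for CXCL8. The cause was not tested. Dim genes limit what can be read, since signal over background was not used here.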
